A study of Mus musculus with 12 samples.

Results

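Untreated Ifnb+/+ cultures of cerebellar granular neurons (CGNs) make up 3 of the 12 samples of the series, and their RNA was read on 1 Affymetrix mouse expression array per sample. They are the untreated wild-type cultures, chosen by their genotype and treatment labels. The other 9 samples are 3 Ifnb+/+ cultures given IFN-beta (100 U/ml for 24 hr), 3 Ifnb-/- cultures given the same dose, and 3 untreated Ifnb-/- cultures. All cultures came from B10.RIII mouse pups 7 days old, were grown for 3 days in neurobasal medium with B27 supplement, and, as bulk cultures of dissociated cerebellum, hold whatever other cells the dissection carried over. The study describes cultures in triplicate, and nothing in the labels says that the 3 samples of a group came from separately prepared cultures or separate litters, so an SD measures the spread between these 3 samples only. In bulk RNA, fewer cells of a type and less RNA per cell cannot be told apart.

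Granule neurons are the small glutamatergic neurons of the cerebellar cortex. They arise after birth from progenitors that depend on Sonic hedgehog signaling and carry the transcription factor Atoh1, switch to Neurod1 as they leave the cell cycle, keep Zic1 and Pax6, and on maturing gain the GABA-A receptor subunit Gabra6, the vesicular glutamate transporter Slc17a7 and the NMDA receptor subunit Grin2c. Type I interferons bind the receptor pair Ifnar1 and Ifnar2, the kinases Jak1 and Tyk2 then pass the signal on, and Stat2 and Irf9 take part in switching on interferon-stimulated genes in the nucleus. The question here is which genes read high, low or variable in wild-type cultures before any interferon was added.

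Values are log2 intensities of 18193 genes, each represented by the probe set that was brightest in these 3 arrays. Probe sets differ in how strongly they bind, so the order of genes is an order of array signal and not of transcript number. Genes were ranked by their mean over the 3 arrays: by construction 1819 genes form the highest 10% and 9096 genes the lowest 50%, and the median gene read 5.35. The array gives no detection call here. As a description of the floor, 46 genes of other organs, such as Ddx4 of germ cells (1.75) and Umod of kidney (1.80), had a median of 2.73, with 95% of them at or below 5.14, and 45 of the 46 lay in the lowest 50%. The exception was the keratin gene Krt10 at 6.31. Of all 18193 genes, 9477 (52.1%) read above 5.14. A low value alone does not show that a gene was silent: the ribosomal protein gene Rps16 read 2.07 ± 0.19 (SD, n = 3), while 35 of the 44 ribosomal protein genes measured were in the highest 10%.

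One of the 3 arrays stood apart. Values given as triples below are those of arrays 1, 2 and 3. Across all genes, arrays 2 and 3 correlated at r = 0.993, arrays 1 and 3 at 0.988 and arrays 1 and 2 at 0.971. A range between the 3 arrays of at least 1 log2 unit, here called variable, was found for 1468 genes (8.07%), and a range of at most 0.2, here called steady, for 4079 genes (22.4%). Array 1 held the single highest or lowest value of all 12 arrays of the series for 9189 genes (50.5%), against 2299 (12.6%) for array 2 and 1060 (5.83%) for array 3. Without array 1, arrays 2 and 3 differed by at least 1 log2 unit in 28 genes (0.154%). Without array 1 the median percentile of granule neuron markers was 91.5, against 93.1 with it, and that of interferon-stimulated genes 41.8, against 42.2. Of the 37 lists the ionotropic glutamate receptor genes moved most, and were at percentile 60.4 without array 1 and 54.5 with it. The count of variable genes fell to 28 without array 1 and to 257 without array 2, and was 1458 without array 3.

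The marker check bore out part of the label. Zic1, a zinc finger transcription factor of the granule lineage, read 12.18, 12.58 and 12.46 (12.41 ± 0.21, SD, n = 3) and ranked 15th of all genes. Neurod1 read 11.32, 11.98 and 11.82 (11.71 ± 0.35), at percentile 99.7. The homeobox gene Pax6 read 9.19, 9.40 and 9.35 (9.32 ± 0.11), at percentile 95.1. Gabra6, the subunit that marks mature granule neurons, stood at the middle of the scale instead: 5.47, 5.45 and 5.48 (5.46 ± 0.02), at percentile 51.3, and its second probe set read 4.36, 3.62 and 4.01. The 3 arrays differed by 0.03 at most on the brighter probe set but not on the second, which was highest in array 1 and lowest in array 2.

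The 20 highest-ranked genes were led by the actin-binding peptide Tmsb10 (13.56, 13.47 and 13.51), the cytoskeletal actin Actb (13.23 ± 0.06, SD, n = 3) and the alpha-tubulin Tuba1a (13.05 ± 0.11). Next came the iron store Fth1 (12.90 ± 0.08), the translation elongation factor Eef1a1 (12.88 ± 0.02), the second thymosin Tmsb4x (12.72 ± 0.20), the actin Actg1 (12.65 ± 0.11) and Stmn1 (12.58 ± 0.01), which destabilizes microtubules. The tumor protein Tpt1, the growth cone protein Basp1 and the RNA-binding protein Hnrnpab followed at 12.55, 12.54 and 12.49. The ribosomal protein genes Rps29, Rpl37a, Rps28, Rps14 and Rpl38 filled 5 of the 20 places, and the last were held by Zic1, the chaperone Hspa8, the cytochrome oxidase subunit Cox6a1 and the beta-tubulin Tubb5. Zic1 was the only transcription factor of the cell type lists among them.

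**Figure D1:**
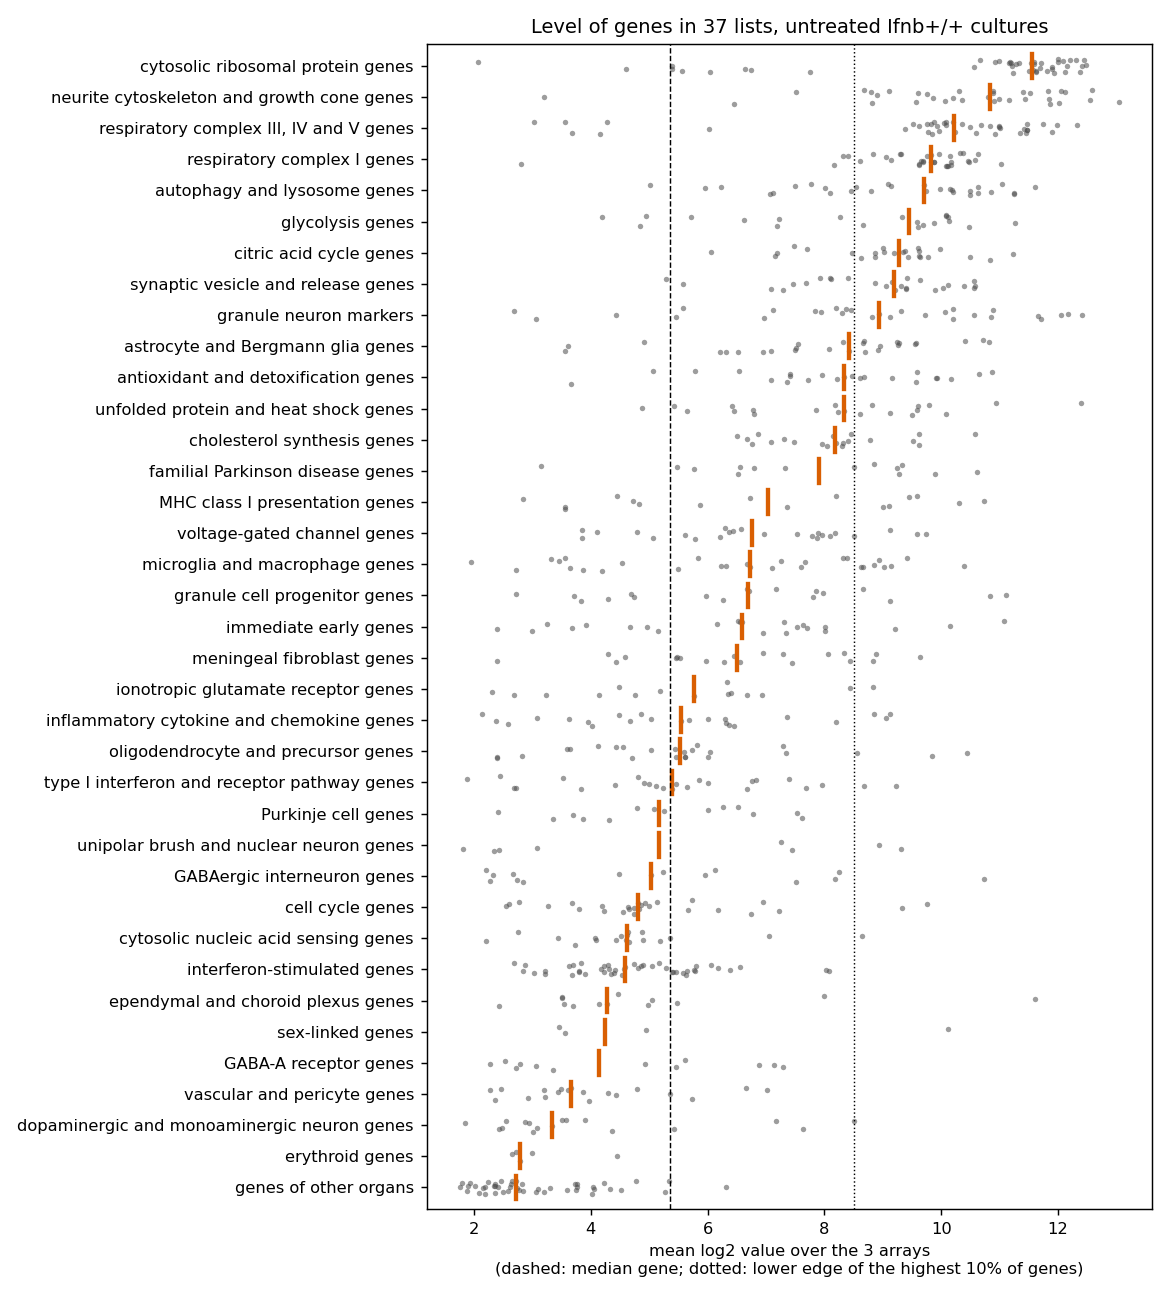
Mean log2 value over the 3 untreated Ifnb+/+ arrays (x axis) of each measured gene in 37 lists (rows, 1 grey point per gene, a gene in 2 lists drawn in both), with the orange bar at the list's median. Lists run from the ribosomal protein genes (median 11.56) at the top to the genes of other organs (median 2.73) at the bottom.

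Granule neuron markers were high as a list. Of 30 listed genes 29 were measured, 16 were in the highest 10% and 3 in the lowest 50%, and their median was 8.94 (percentile 93.1), where the median of all genes is at percentile 50 by construction. Reln, the secreted protein that young granule neurons release to guide migration, read 12.16, 12.12 and 12.22, and Stmn2, a growth cone protein, read 12.03, 12.06 and 12.04. The nuclear factor Nfix (11.65), the migration protein Dcx (10.88), the synapse organizer Cbln1 (10.85) and the neuronal splicing factor Rbfox3 (10.21) followed. Some members, such as Stmn2, Dcx and Rbfox3, are genes of neurons in general, so the level of the list does not measure granule neurons alone.

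The low end of the same list held genes of the mature cell. Grin2c read 2.84, 2.57 and 2.66, Gabrd, the extrasynaptic GABA-A subunit of granule neurons, 3.59, 2.74 and 2.88, and Cbln3, a secreted partner of Cbln1, 4.65, 4.33 and 4.30. All 3 were under the 5.14 that bounded most genes of other organs. Slc17a7 was at the middle and spread widely, with 6.46, 4.49 and 5.79 (5.58 ± 1.00, SD, n = 3). It was highest in array 1 and lowest in array 2, and these arrays differed by 1.98. The related transporter Slc17a6, which loads glutamate into vesicles of other and of immature cerebellar neurons, read 9.15, 9.44 and 9.36, at percentile 95.1.

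Genes of granule cell progenitors and of division were mostly lower. Of 18 progenitor genes, 4 were in the highest 10% and 6 in the lowest 50%, with a median of 6.69. The 4 were Sox4 (11.12) and Sox11 (10.84), transcription factors that also mark newly born neurons, the Sonic hedgehog receptor Ptch1 (9.12) and the homeobox gene Barhl1 (8.66). Atoh1, the defining progenitor factor, read 4.19, 3.53 and 3.80, and Gli1, a direct hedgehog target, 2.83, 2.68 and 2.66. Of 27 cell cycle genes 19 were in the lowest 50%, with the mitotic kinase genes Bub1 (2.60) and Aurkb (2.54) at the bottom. Pcna (9.76) and Mcm7 (9.32), which serve DNA replication, were the only members in the highest 10%. The mitotic genes Cdc20 (6.73, 4.86 and 5.38) and Aurka (5.33, 3.95 and 4.35) were variable and highest in array 1.

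Genes of neurites and synaptic vesicles were mostly high. Of 34 neurite cytoskeleton and growth cone genes 31 were in the highest 10%, with a median of 10.84 (percentile 99.0), and 12 were among the 100 highest genes. Besides Tuba1a, Stmn1 and Basp1 these included Cfl1, which severs actin filaments (12.11 ± 0.04, SD, n = 3), and Mapt, the microtubule-associated protein tau (11.61, 11.41 and 11.52). The neurofilament genes Nefm (6.45) and Nefh (3.20) were at the low end. Of 26 synaptic vesicle and release genes 16 were in the highest 10% and 1 in the lowest 50% (Vamp1, 5.28), with a median of 9.18, and none was among the 100 highest genes. The complexin Cplx1 (10.58), the proton pump subunit Atp6v0d1 (10.56), the GTPase Rab3a (10.56), the calcium sensor Syt1 (10.34, 10.38 and 10.45) and the fusion protein Snap25 (10.12) led them.

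Receptors and channels of the mature neuron spread over the whole scale. Of 15 ionotropic glutamate receptor genes 1 was in the highest 10% and 7 in the lowest 50%. The AMPA receptor subunit Gria2 read 7.85, 9.60 and 9.02, Gria4 7.75, 9.04 and 8.51, and Gria3 4.45, 6.77 and 6.08, so that array 1 was lowest for each of the 3. The NMDA subunit Grin2b read 6.40, whereas Grin2a, which replaces it in mature neurons, read 2.31. Of 12 GABA-A receptor genes none was in the highest 10% and 7 were in the lowest 50%, and Gabrb1 (7.29), Gabrb2 (7.14) and Gabra4 (6.88) led. Of 24 voltage-gated channel genes 4 were in the highest 10%, among them the A-type potassium channels Kcnd2 (9.50, 9.94 and 9.79) and Kcnd3 (8.59, 9.62 and 9.14). Of these channel genes 8 were variable (33.3%, against 8.07% of all genes). Array 2 was highest in 7 of the 8, and in 1015 of all 1468 variable genes.

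Genes known from other cerebellar neurons were mostly at or below the middle of the scale, with a few high ones whose source was not tested. Gad1, which makes GABA and is not a granule neuron gene, read 9.99, 11.29 and 10.91 (10.73 ± 0.67, SD, n = 3), at percentile 98.9, and its second probe set read 8.63, 10.03 and 9.50. The vesicular GABA transporter Slc32a1 (8.24), the receptor Kit of molecular layer interneurons (8.17) and Tfap2b, a transcription factor of the GABAergic lineage (6.29, 8.45 and 7.78), followed. All 4 were lowest in array 1. Over the whole list, 6 of 15 GABAergic interneuron genes were variable (40.0%, against 8.07% of all genes) and 9 were in the lowest 50%. The forebrain interneuron genes Dlx1 (2.20) and Vip (2.33) and the neuropeptide Cck (2.27) were under the median of the genes of other organs.

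Purkinje cell genes were middling, with a median of 5.17 over 14 genes, 8 of them in the lowest 50% and none in the highest 10%. The nuclear receptor Rora (6.95, 8.23 and 7.67) and the homeobox gene Lhx1 (7.01, 7.99 and 7.57) were the highest, and the Purkinje markers Calb1 (6.77, 6.81 and 6.76) and Pcp2 (6.38, 6.28 and 6.14) differed little between arrays. Of the unipolar brush and nuclear neuron list, Calb2 (9.56, 8.23 and 9.03) was high beside Slc17a6, and Eomes, the factor of unipolar brush cells, read 7.40, 7.17 and 7.18, while Tbr1 read 1.80.

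Genes of dopaminergic and monoaminergic neurons were low: 13 of 17 were in the lowest 50%, with a median of 3.33. Tyrosine hydroxylase, Th, the rate-limiting enzyme of dopamine synthesis, read 3.33, 2.86 and 3.03 (3.08 ± 0.24, SD, n = 3), and the dopamine decarboxylase Ddc 2.47. The 4 exceptions were the midbrain and hindbrain factor En2, which cerebellar cells also carry, at 8.29, 8.70 and 8.55, the nuclear receptor Nr4a2 at 7.64, the monoamine oxidase Maoa, which degrades dopamine and serotonin, at 7.35, 7.06 and 7.12, and the noradrenaline-forming enzyme Dbh at 5.42, just above the median gene. Of the familial Parkinson disease genes, 14 of 18 were measured, 7 were in the highest 10% and 1, the kinase Lrrk2 (3.14), in the lowest 50%. The deubiquitinase Uchl1 (10.61), the redox sensor Park7 (9.90), the retromer subunit Vps35 (9.33), the mitochondrial kinase Pink1 (9.33, 9.23 and 9.27) and the phosphatase Synj1 (9.24) led. None of the 14 was variable, where 8.07% of all genes were, but their median SD was 0.289, against 0.201 over all genes.

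**Figure D2:**
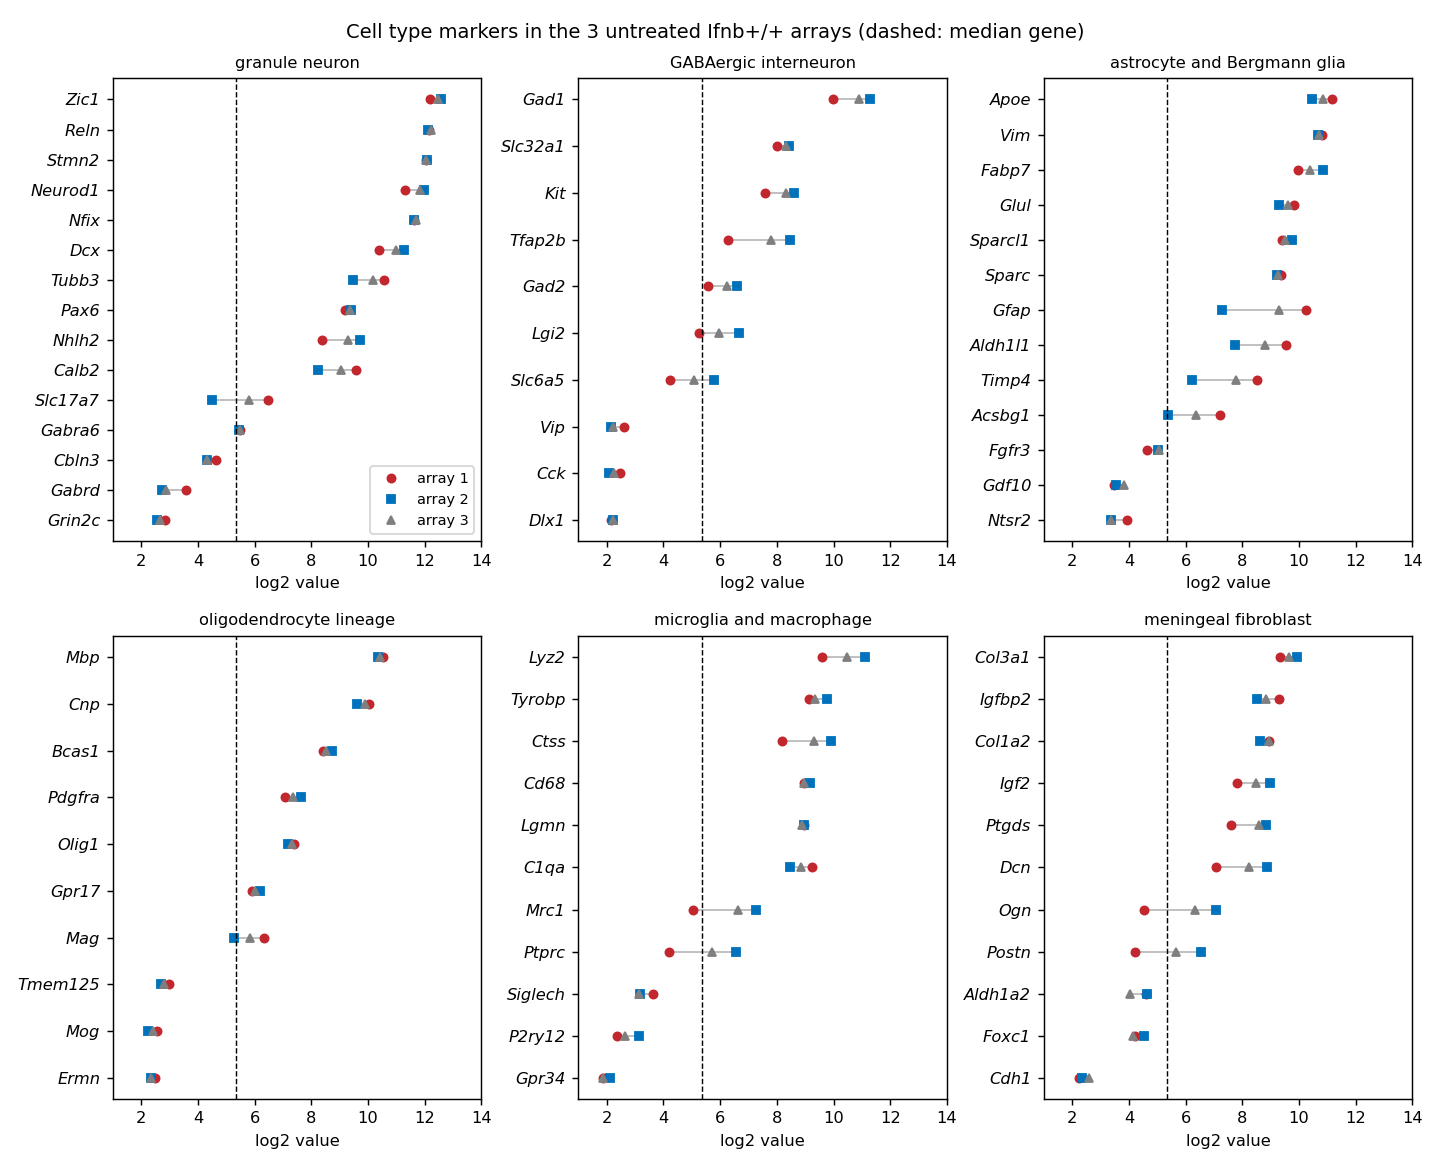
Log2 value (x axis) of leading, lowest and most variable genes of 6 cell type lists (panels) in array 1 (red circles), array 2 (blue squares) and array 3 (grey triangles) of untreated Ifnb+/+ cultures, with a line over the range and the median gene dashed. Gfap spans 7.29 to 10.25 with array 1 highest, and Gad1, Lyz2 and Dcn have array 1 lowest.

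Astrocyte and Bergmann glia genes read almost as high as the granule list. Of 27 measured genes 13 were in the highest 10% and 3 in the lowest 50%, with a median of 8.43 (percentile 89.3). The lipid carrier Apoe (11.15, 10.46 and 10.85), the intermediate filament Vim (10.72 ± 0.07, SD, n = 3), the fatty acid-binding protein Fabp7 of radial and Bergmann glia (9.98, 10.85 and 10.38) and the glutamine synthetase Glul (9.82, 9.29 and 9.60) led. Gdf10, a Bergmann glia gene, read 3.61 and Ntsr2 3.55. Whether other cells of the cultures also carried the listed genes was not tested, so the level of the list does not measure astrocytes alone.

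Gfap, the intermediate filament of astrocytes, was the astrocyte gene with the largest range: 10.25, 7.29 and 9.31, or 2.97 between arrays 1 and 2. Its other probe sets read 9.39, 6.46 and 8.56, and 7.71, 4.19 and 6.70, with the arrays in the same order. The protease inhibitor Timp4 (8.51, 6.24 and 7.77), the folate enzyme Aldh1l1 (9.54, 7.73 and 8.80) and the acyl-CoA synthetase Acsbg1 (7.20, 5.37 and 6.35) had that order too. Fabp7 had the opposite one, and of the 27 genes 17 were highest in array 1, 6 in array 2 and 4 in array 3, where 57.1% of all genes were highest in array 1. In the 9 other arrays of the series Gfap lay between 7.46 and 10.31. Its lowest values there were in untreated Ifnb-/- cultures, at 7.46, 7.59 and 7.66.

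The Gfap order did not rest on array 1 alone. Of the 28 genes that differed by at least 1 log2 unit between arrays 2 and 3, 20 were higher in array 3, and in all 20 array 1 was higher still. Besides Gfap, Timp4, Aldh1l1 and the matrix protein Tnc (7.67, 4.73 and 6.78), these included the astrocyte genes Bcan (9.42, 7.74 and 8.85), Gpr37l1 (9.04, 7.20 and 8.36) and Hes5 (6.67, 4.90 and 6.18), named here after their values were seen. The 20 were of mixed kinds, and the others were Slc17a7, Grm4 (6.68, 5.04 and 6.05), Cacng5, Kcnk12, Usp18, Acot7, Ttc9b, Syndig1l, Sapcd2, Mfge8, Metrn, Cmtm5 and Tgfbi. Of the 27 genes of the astrocyte list, 3 differed by at least 1 log2 unit between arrays 2 and 3.

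Genes of the myelin lineage did not read alike. Of 24 oligodendrocyte genes 3 were in the highest 10% and 10 in the lowest 50%, with a median of 5.52. The myelin basic protein Mbp read 10.53, 10.37 and 10.43, the myelin enzyme Cnp 10.02, 9.60 and 9.90, and Bcas1, a gene of cells that are beginning to myelinate, 8.41, 8.73 and 8.51. The precursor receptor Pdgfra read 7.34. The late myelin genes Mog (2.57, 2.22 and 2.41) and Ermn (2.50, 2.34 and 2.34) were at the level of genes of other organs. Mag (6.34, 5.28 and 5.85) was the only variable member.

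Genes of the macrophage lineage were unequal as well. Of 29 genes 8 were in the highest 10% and 9 in the lowest 50%, with a median of 6.72. The lysozyme Lyz2 (9.59, 11.12 and 10.47), the adaptor Tyrobp (9.13, 9.77 and 9.36), the protease Ctss (8.19, 9.90 and 9.32) and the lysosomal glycoprotein Cd68 (8.96, 9.15 and 8.97) were high. Genes used to mark resting microglia in the brain did not read alike. Gpr34 (1.86, 2.13 and 1.88), the purinergic receptor P2ry12 (2.37, 3.13 and 2.65) and Siglech (3.65, 3.17 and 3.13) were the lowest of the list. Fcrls (7.72, 7.53 and 7.55) and the growth factor receptor Csf1r (8.24, 8.48 and 8.46) were above the median gene. Of the 29 genes 4 were variable (13.8%, against 8.07% of all genes). These 4, Ptprc (4.19, 6.56 and 5.72), the mannose receptor Mrc1 (5.04, 7.26 and 6.63), Ctss and Lyz2, were all highest in array 2. The metalloelastase of macrophages, Mmp12 (4.99, 7.60 and 6.87), and the scavenger receptor Cd36 (4.73, 8.23 and 7.44) were among the 20 genes of largest range and had the same order.

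Some genes known from the meninges and choroid plexus were high, and their source was not tested. Of 20 meningeal fibroblast genes 3 were in the highest 10% and 4 in the lowest 50%, with the collagen Col3a1 (9.32, 9.92 and 9.65) leading. Ogn (4.53, 7.08 and 6.31), Postn (4.22, 6.53 and 5.66), the proteoglycan Dcn (7.06, 8.87 and 8.23) and the prostaglandin synthase Ptgds (7.59, 8.83 and 8.57) were among the 5 variable members and were lowest in array 1. Ttr, the transthyretin of choroid plexus, ranked 68th of all genes at 9.89, 12.76 and 12.15 (11.60 ± 1.51, SD, n = 3), and all 4 of its probe sets were lowest in array 1 and highest in array 2. The choroid factor Otx2, which granule progenitors also use, read 8.22, 7.77 and 8.01. The other choroid and ependymal genes were far lower: 10 of 13 were in the lowest 50%, among them Kl (2.43). The part of each of these cell types in the differences between arrays was not tested.

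Vascular genes were low, with 15 of 19 in the lowest 50%, a median of 3.66, and the endothelial receptors Tie1 (2.37) and Tek (2.47) near the bottom. The highest was Vtn (6.35, 7.63 and 7.05). All 5 erythroid genes measured were in the lowest 50%, with a median of 2.79. The beta-globin genes were not among these 5, since the probe set that reads them names several genes. That probe set read 8.49, 7.80 and 8.19, and with such probe sets included the erythroid median was at percentile 63.4, against 19.2.

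Most genes of energy metabolism were high. Of 40 genes of respiratory complexes III, IV and V 34 were in the highest 10%, with a median of 10.23 (percentile 97.9), led by Cox6a1 (12.33), the ATP synthase subunits Atp5b (12.22, 11.65 and 12.06) and Atp5g3 (11.90) and the oxidase subunit Cox4i1 (11.75). The 3 lowest, Cox7a1 (3.02), Cox4i2 (3.55) and Cox8b (3.68), encode subunit forms of heart, muscle or lung, and Cox6b2 (4.15) and Cox7c (4.27) were in the lowest 50% too. Of 34 complex I genes 30 were in the highest 10%, led by Ndufb11 (11.02), and 1, Ndufb4 (2.80), was in the lowest 50%. All 24 citric acid cycle genes were above the median gene, and 18 were in the highest 10%, led by the malate dehydrogenases Mdh2 (11.42, 11.06 and 11.22) and Mdh1 (10.83).

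Of 20 glycolysis genes 12 were in the highest 10%, led by the aldolase Aldoa (11.65, 10.82 and 11.31), the isomerase Tpi1 (11.04, 9.84 and 10.53), the mitochondrial pyruvate carrier Mpc1 (10.14), the pyruvate kinase Pkm (10.12) and the neuronal glucose transporter Slc2a3 (10.08). Hk2 (4.95) and Pfkfb3 (4.84), which belong to proliferating or stimulated cells, and the monocarboxylate transporter Slc16a7 (4.19) were in the lowest 50%. All 20 cholesterol synthesis genes were above the median gene, led by the synthase Hmgcs1 (10.58). Within these metabolic lists array 1 was mostly highest: in 16 of 20 glycolysis genes, 18 of 24 citric acid cycle genes, 24 of 34 complex I genes and 33 of 40 genes of complexes III to V, against 10389 of all 18193 genes (57.1%). The glial aldolase Aldoc (9.41, 7.82 and 8.73) had the largest range of the glycolysis genes.

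Protein supply and disposal were also high. Of 44 ribosomal protein genes 35 were in the highest 10% and 26 were among the 100 highest genes. None of the 44 was variable, where 8.07% of all genes were. Of 29 autophagy and lysosome genes 19 were in the highest 10% and 1, the transcription factor Tfeb (5.01), in the lowest 50%. Map1lc3a (11.61) and Map1lc3b (10.64, 10.58 and 10.65), which encode the LC3 proteins of the autophagosome membrane, the saposin precursor Psap (11.25), the protease Ctsb (11.24), the LC3 relative Gabarap (11.04) and Ctsl (10.86) led. The adaptors Sqstm1, or p62 (10.65, 10.34 and 10.50), and Nbr1 (9.61, 9.82 and 9.80), which carry ubiquitinated cargo to autophagosomes, were both in the highest 10%. Of the members, Ctss and Lamp2 (7.55, 8.58 and 8.16) were variable.

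Interferon receptors were read well above the genes of other organs. Ifnar1 read 7.44, 7.36 and 7.40 and Ifnar2 6.75, 6.72 and 6.79, and both were steady. Of the kinases, Jak1 was in the highest 10% at 8.73, 8.66 and 8.64, whereas Tyk2 read 5.20, 5.30 and 5.20, just under the median gene. The phosphatase Ptpn11 (9.29, 9.21 and 9.19) led the list, followed by Jak1, Stat3 (7.95) and the inhibitor Pias1 (7.69). Stat2 (5.55, 5.23 and 5.58) and Irf9 (5.77, 4.94 and 5.47), which act in the nucleus on interferon-stimulated genes, lay at the middle of the scale. The ligands were at the floor: Ifnb1 read 2.60, 2.77 and 2.79, Ifna2 2.68, Ifna4 2.45 and Ifng 1.88. Of the 25 genes of this list 9 were steady (36.0%, against 22.4% of all genes). Only 1, Usp18, was variable (4.00%, against 8.07%).

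No interferon-stimulated gene reached the highest 10%. Of 52 listed genes 46 were measured, 31 were in the lowest 50%, and the median was 4.58 (percentile 42.2), above the median of 2.73 of the genes of other organs. Of the 46 genes 17 read above 5.14. The membrane proteins Ifitm3 (8.41, 7.82 and 7.99) and Ifitm2 (8.25, 7.91 and 7.92), close relatives that block virus entry, stood well above the next gene, Lgals3bp (6.75, 6.27 and 6.66). Ifi27 (6.38) and the chemokine Ccl5 (6.17) came after it. At the low end were Oas3 (2.87), Cxcl9 (2.83) and Sp100 (2.68), with Mx1, the classical antiviral GTPase, at 2.84, 2.82 and 3.44.

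Of the 46 genes 3 were variable (6.52%), near the 8.07% of all genes, and 6 of the 46 were steady, where 22.4% of all genes were. Their median SD was 0.222, against 0.201 over all genes. Usp18, which ends interferon signaling at the receptor, read 5.09, 3.52 and 4.63 (4.42 ± 0.81, SD, n = 3). Oasl2, of the oligoadenylate synthetase family, read 4.74, 3.51 and 4.26, and Ifit2, which binds viral RNA, 3.04, 4.21 and 4.24. Usp18 and Oasl2 were highest in array 1, whereas Ifit2 was lowest there. All 3 Usp18 values lay above those of untreated Ifnb-/- cultures (2.69, 2.62 and 2.94) and far below those of Ifnb+/+ cultures given IFN-beta (10.67, 11.22 and 11.79).

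**Figure D3:**
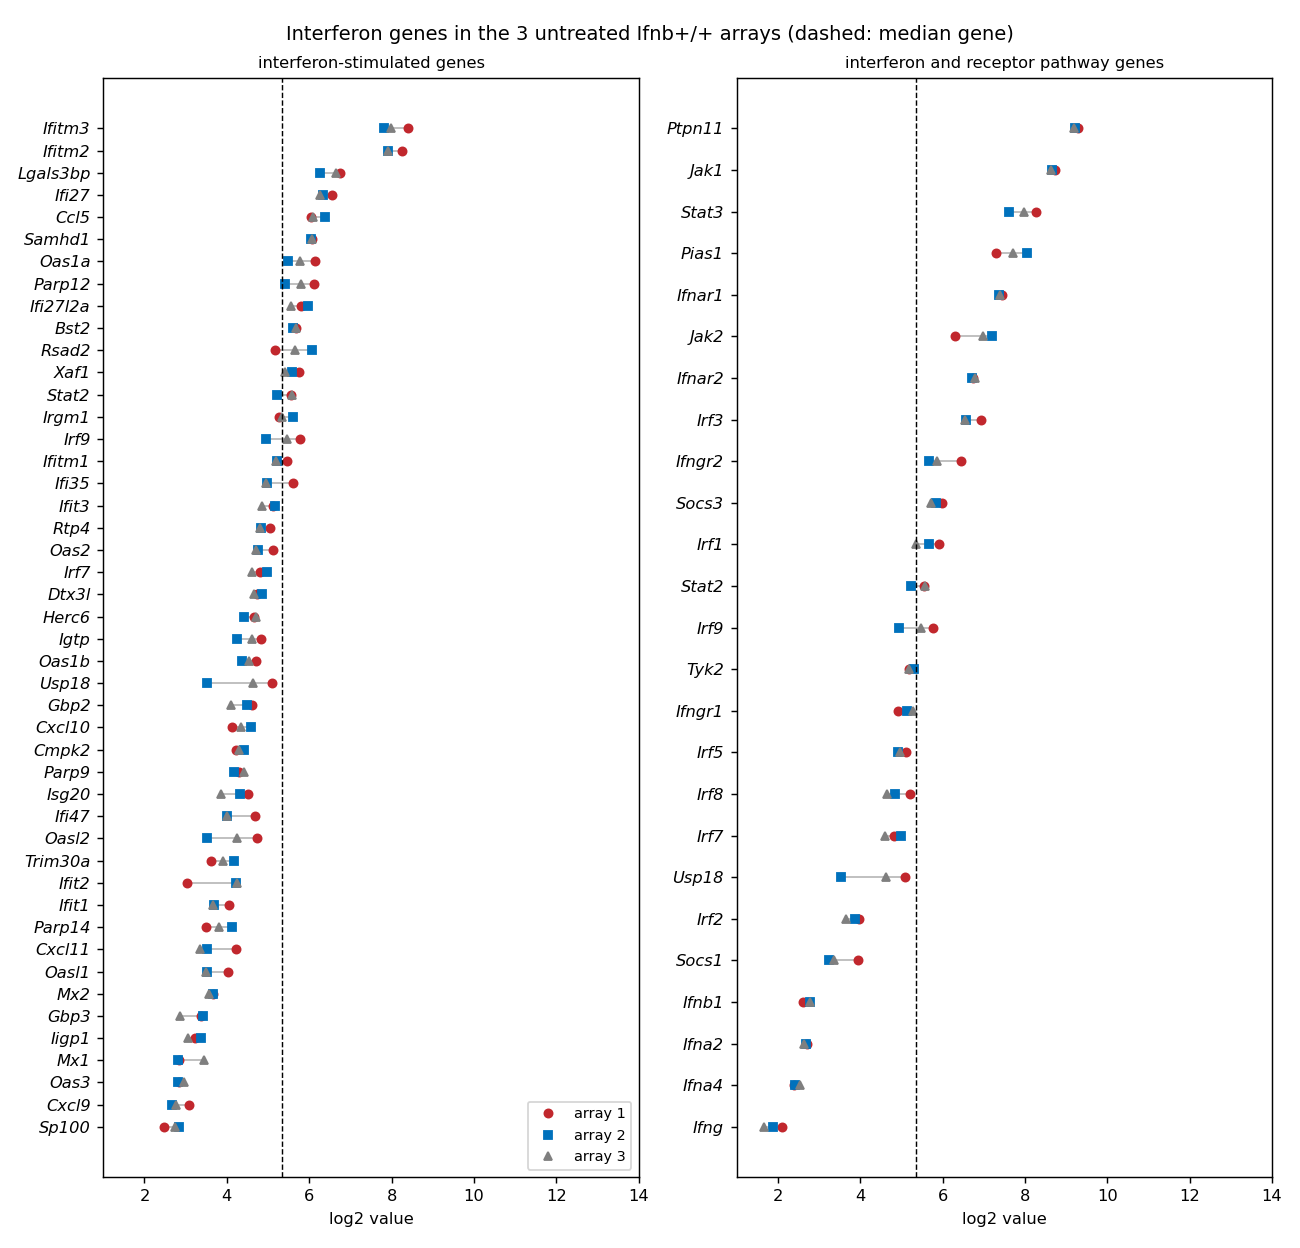
Log2 value (x axis) of 46 interferon-stimulated genes (left) and 25 genes of the interferon and receptor pathway (right) in array 1 (red circles), array 2 (blue squares) and array 3 (grey triangles) of untreated Ifnb+/+ cultures, with genes ordered by their mean and the median gene dashed. Ifitm3 and Ifitm2 stand alone near 8, and 31 of the 46 stimulated genes lie in the lowest 50% of all genes.

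The promoters of these genes often carry the letters of the interferon-stimulated response element. The letters GAAANNGAAA were searched on both strands in the 250 bases before the start of each gene, with RefSeq windows of build GRCm38.p6. Of the 33 measured stimulated genes with a window, 14 (42.4%) held a match, against 936 of 27025 genes with a window (3.46%). The 14 genes with a match had a median level of 4.81, with 8 in the lowest 50%, and the 19 without a match a median of 4.74, with 13 in the lowest 50%. Sequences of the 2 highest and the 2 lowest of the 14 are shown, 150 bases ending 1 base before the start on the gene's own strand, because the same letters occur at both ends of the range of levels. Capitals mark a match, and in Oas1a and Gbp3 a pair of matches overlaps by 4 bases.
Ifitm2 (8.03; chr7:140955962-140956111, minus strand): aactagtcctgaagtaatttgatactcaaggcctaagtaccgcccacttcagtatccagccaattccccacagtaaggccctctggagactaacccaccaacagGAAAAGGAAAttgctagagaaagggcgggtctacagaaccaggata
Oas1a (5.80; chr5:120907526-120907675, minus strand): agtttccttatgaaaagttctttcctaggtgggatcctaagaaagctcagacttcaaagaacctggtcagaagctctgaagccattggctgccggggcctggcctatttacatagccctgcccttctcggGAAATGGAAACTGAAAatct
Gbp3 (3.22; chr3:142559894-142560043, plus strand): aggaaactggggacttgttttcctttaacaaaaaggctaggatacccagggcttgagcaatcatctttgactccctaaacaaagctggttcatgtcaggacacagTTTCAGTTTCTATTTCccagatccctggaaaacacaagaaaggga
Oas3 (2.87; chr5:120777660-120777809, minus strand): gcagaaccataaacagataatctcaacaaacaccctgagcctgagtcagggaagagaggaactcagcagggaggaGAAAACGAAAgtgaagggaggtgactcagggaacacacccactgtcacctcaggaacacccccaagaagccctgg
The match of Ifitm2, which read 8.03, begins 46 bases before the start, and that of Oas3, which read 2.87, begins 75 bases before it. A match is a description of the letters and shows neither binding nor its absence.

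Genes that sense foreign nucleic acids were low. Of 18 measured, 15 were in the lowest 50% and 1, the RNA editing enzyme Adar (8.76, 8.45 and 8.71), was in the highest 10%. The kinase Tbk1 (6.46, 7.56 and 7.15) was variable, and so was the receptor Tlr7 (3.15, 4.34 and 3.71). Tlr3 read 2.75 and the DNA sensor Aim2 2.20. Class I antigen presentation divided into 6 genes in the highest 10% and 6 in the lowest 50% of 16. The chaperones Calr (10.72), Canx (9.58) and Pdia3 (9.44) are not particular to antigen presentation. The class I light chain B2m (9.91, 10.71 and 10.26) and heavy chain H2-K1 (9.25, 8.98 and 9.09) were high as well. The variable members were both highest in array 1: Tap1, the peptide transporter, read 5.35, 4.24 and 4.90 and the immunoproteasome subunit Psmb9 5.50, 3.99 and 4.69. Nlrc5, which drives class I genes, read 2.84.

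Inflammatory genes were spread over the scale, with 3 of 23 in the highest 10% and 11 in the lowest 50%. The chemokine Cxcl12 (9.02, 9.21 and 9.13), the NF-kappaB inhibitor Nfkbia (9.06) and the chemokines Ccl9 (8.84) and Ccl3 (7.76, 8.59 and 8.26) led, while Il6 (2.59), Il12b (2.38) and Il10 (2.13) were at the floor. Of the immediate early genes, which neurons switch on within minutes of activity or handling, Jund (11.08), Fos (10.07, 10.14 and 10.21) and Dusp1 (9.21) were in the highest 10%. Arc (2.99) and Fosb (2.39), which also follow activity, were in the lowest 50%. None of the 23 was variable, where 8.07% of all genes were. Of 21 unfolded protein and heat shock genes 10 were in the highest 10%, led by Hspa8 (12.40), Hsp90aa1 (10.45, 11.35 and 11.03) and the chaperone of the endoplasmic reticulum Hspa5 (10.09), whereas the stress-induced Trib3 (4.88), Chac1 (5.42) and Hspa1a (5.65) were far lower.

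The sex-linked genes were read to see what the cultures held. Xist, the RNA of the inactive X chromosome, read 9.17, 10.84 and 10.36 on its brightest probe set. Its other probe sets read 5.95, 9.37 and 8.76, and 3.14, 6.63 and 6.16, so array 1 was lowest in each. The Y-linked Eif2s3y read 4.97, 4.99 and 4.89, with Uty at 3.55 and Kdm5d at 4.16, 3.16 and 3.04. These Y-linked genes were all under the 5.14 that bounded most genes of other organs. That bound comes from other probe sets and does not show that Y-linked RNA was absent. Eif2s3y ranged from 2.82 to 7.31 over the other 9 arrays, and Xist from 4.34 to 10.94. The array with Eif2s3y at 2.82 had Xist at 10.94, and the array with Eif2s3y at 7.31 had Xist at 5.08. The 3 untreated Ifnb+/+ arrays therefore lay between those extremes and close to each other for Eif2s3y. The labels do not give the sex of the pups.

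Variability followed a single order. Of the 1468 variable genes 1015 (5.58% of all genes) were highest in array 2, 449 (2.47%) in array 1 and 4 in array 3. Array 3 lay between the other arrays in 1458 of the 1468 (99.3%), against 12615 of all 18193 genes (69.3%). On the linear scale its place between array 1 (0) and array 2 (1) had a median of 0.531, with an interquartile range of 0.473 to 0.585, for genes highest in array 2, and 0.594, with 0.528 to 0.658, for genes highest in array 1. On the log2 scale these medians were 0.643 and 0.493. Array 1 was below all 11 other arrays of the series in 893 of the 1015 genes and above all of them in 392 of the 449. Over all genes array 1 was below all others in 17.1% and above all others in 33.4%. Array 2 was above all others in 235 of the 1015 and below all others in 97 of the 449, against 5.86% and 6.77% of all genes. The 1015 and the 449 were selected by their range and direction in these same arrays, which by itself raises such counts.

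**Figure D4:**
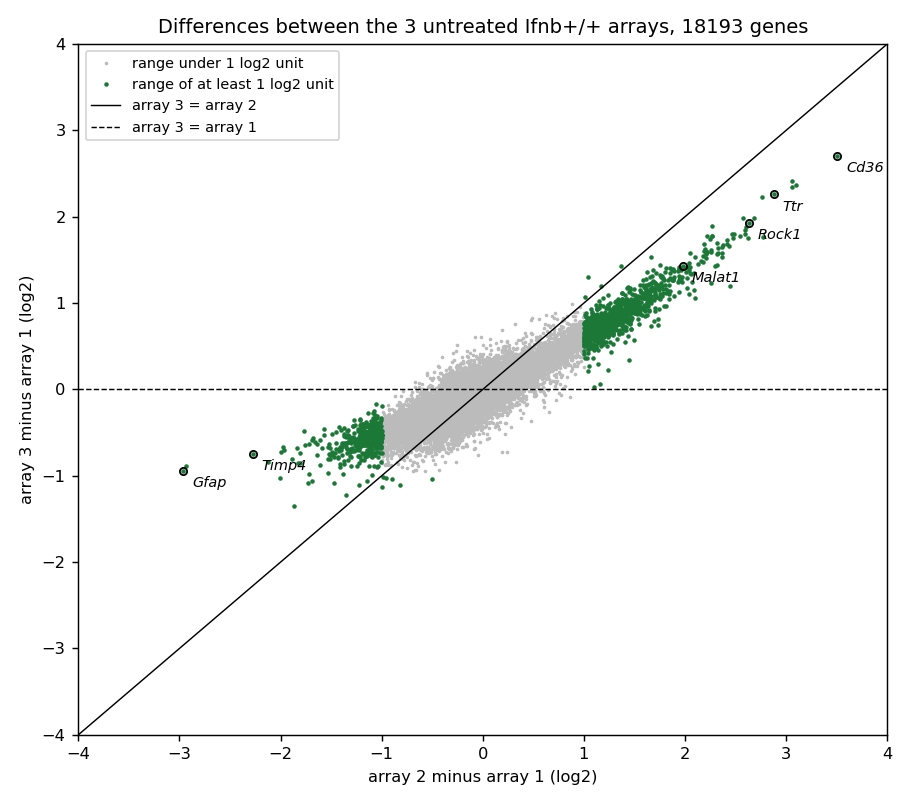
Difference of array 3 from array 1 (y axis, log2) against that of array 2 from array 1 (x axis, log2) for 18193 genes of untreated Ifnb+/+ cultures, with genes of a range of at least 1 log2 unit in green. Green points lie between the line where array 3 equals array 1 (dashed) and the line where it equals array 2 (solid) in 1458 of 1468 genes.

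Second probe sets mostly had the same direction. Of 470 genes highest in array 2 with a second probe set that averaged at least 5, 453 had array 2 above array 1 there as well, and of 100 genes highest in array 1, 97 had array 1 above array 2. Over all 4322 genes with such a probe set, 3725 had the same direction in both. The second probe set reached a range of 1 in 275 of the 470 and in 60 of the 100. The differences between arrays 2 and 1 in the 2 probe sets correlated at r = 0.535 across the 470 genes, 0.512 across the 100 and 0.841 across all 4322. The 470 and the 100 were selected by the range and direction of their first probe set. Such a selection by itself raises the counts of the same direction. It lowers the correlations, and the range of the second probe set relative to the first. These values therefore do not show how alike the sizes were, and genes of the same arrays are not independent. An exception was Neat1, a nuclear RNA, whose probe sets read 3.71, 6.77 and 6.06, and 5.65, 5.40 and 5.41.

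The genes of largest range that were higher in array 2 were of mixed kinds. Beside Cd36, Ttr and Neat1 they were the editing enzyme relative Adarb2 (4.53, 7.58 and 6.94), the endocytic protein Fcho2 (4.32, 7.08 and 6.55), Eml5 (mean 7.88), the kinase Rock1 (5.98, 8.62 and 7.92) and the splicing kinase Clk1 (6.94, 9.37 and 8.59). The zinc finger genes Zfp948, Zfp760 and Zfp386, Paxbp1, Cnpy1, Cttnbp2 and the splicing factor Prpf39 had ranges of 2.38 to 2.63. Rock1 was lowest in array 1 in all 5 of its probe sets, and in the other 9 arrays of the series it lay between 7.94 and 8.67. Chosen after their values were seen, 336 genes with a Zfp number held 65 variable genes (19.3%), 60 of them highest in array 2. Over all genes 8.07% were variable and 5.58% variable with array 2 highest, and among genes with a mean of 5 to 7, where the Zfp median of 5.76 lies, 13.8% were variable. The long nuclear RNAs Malat1 (10.41, 12.39 and 11.85) and Meg3 (7.51, 9.60 and 8.85) had the same order.

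In the other direction Gfap, Tnc, Timp4, the channel subunit Cacng5 (6.88, 4.75 and 6.04) and the matrix protein Matn4 (6.36, 4.35 and 5.33) had the largest ranges. Tnc ranged from 4.72 to 9.53 in the 9 other arrays. Among genes with a mean of at least 5 that were highest in array 3, the imprinted RNA Rian (5.82, 6.86 and 7.12) had a range of 1.30, and the next, D630004K10Rik, one of 0.80. The other variable genes highest in array 3 had lower means and were Ifit2, 2610020C07Rik and AI987944.

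The 2 directions differed in gene size. Genes highest in array 2 spanned a median of 46.1 kb of genome (interquartile range 21.7 to 101 kb), those highest in array 1 13.3 kb (6.14 to 31.0 kb), and all genes 20.3 kb, from RefSeq for 18032 of 18193 genes (99.1%). Among genes with a mean of at least 5, the difference of array 2 minus array 1 correlated with the span at a Spearman rho of 0.315 across 9720 genes. These genes share their arrays and are not independent. In the fifth of these genes with the shortest spans, up to 8.36 kb, the median difference was -0.43, with 142 genes variable and highest in array 1 and 62 highest in array 2. In the fifth with the longest spans, from 76.2 kb, it was 0.21, with 44 and 289 such genes. Gene span moved with the order of the arrays in this way, and its part in any list's deviation was not tested.

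**Figure D5:**
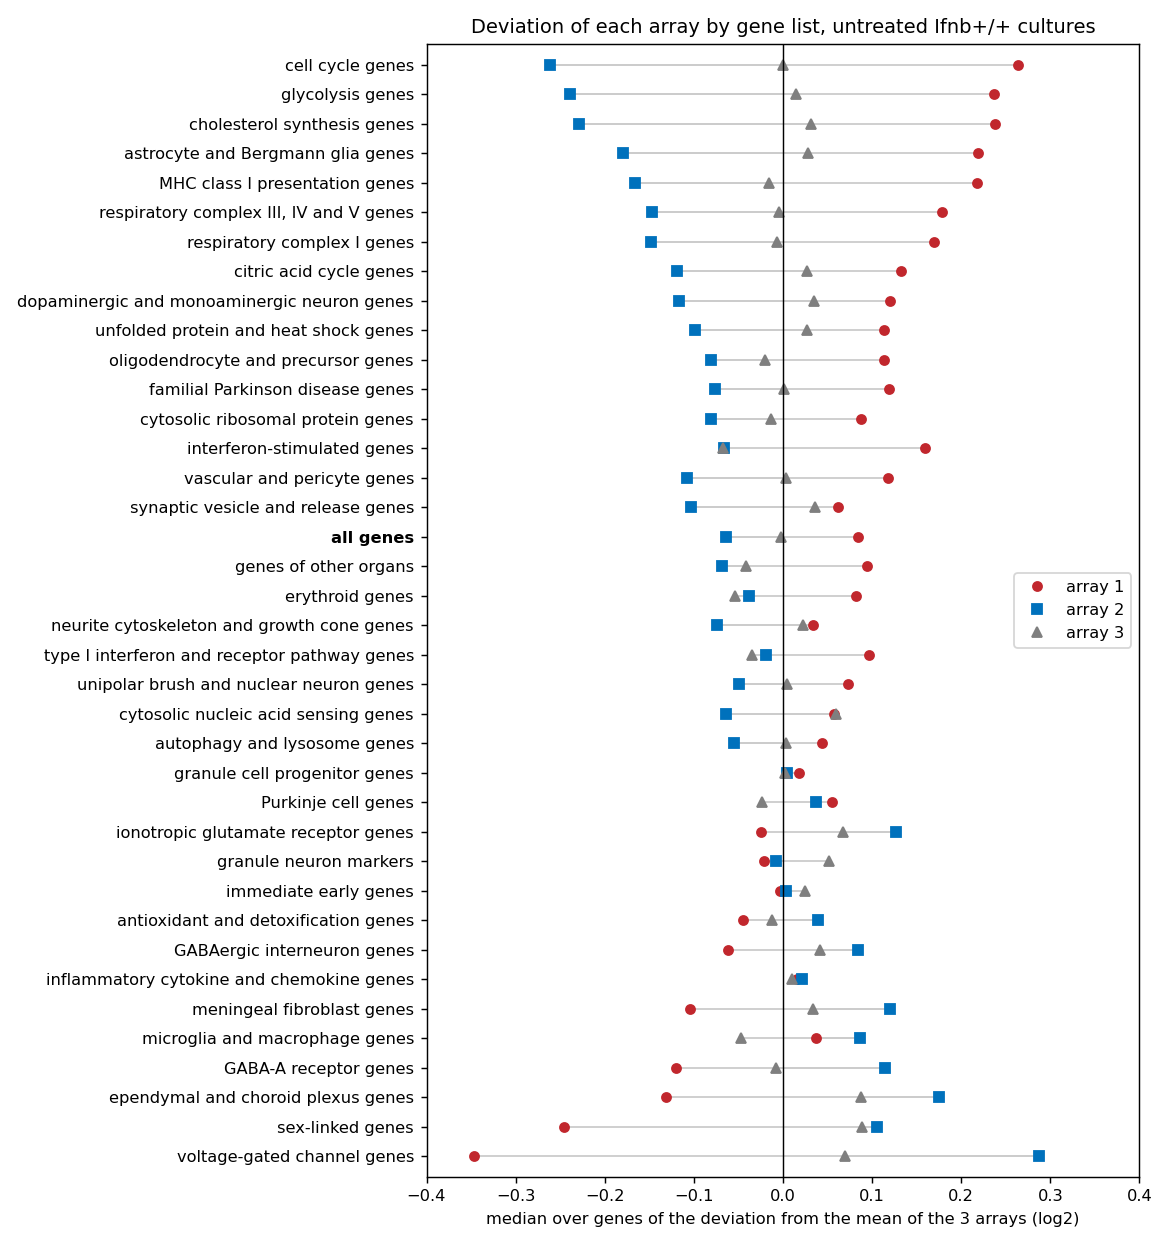
Median over the genes of each list (rows) of the deviation of array 1 (red circles), array 2 (blue squares) and array 3 (grey triangles) from the mean of the 3 untreated Ifnb+/+ arrays (x axis, log2), with all genes in bold. At the median, cell cycle and glycolysis genes deviate upward in array 1, voltage-gated channel genes deviate upward in array 2, and granule neuron markers deviate little. Single granule neuron markers do vary, 4 of 29 by at least 1 log2 unit.

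Set against all genes, whose median deviations were 0.08, -0.06 and -0.00 in arrays 1, 2 and 3, the lists fell on either side. Cell cycle genes deviated by 0.26, -0.26 and -0.00, glycolysis genes by 0.24, -0.24 and 0.02, and astrocyte genes by 0.22, -0.18 and 0.03. Voltage-gated channel genes deviated the other way, by -0.35, 0.29 and 0.07. Granule neuron markers deviated by -0.02, -0.01 and 0.05, and immediate early genes by -0.00, 0.00 and 0.02. A small median can hide members that differ in opposite directions. Of the 29 granule neuron markers 4 were variable (13.8%, against 8.07% of all genes), 3 highest in array 1 and 1 in array 2. Interferon-stimulated genes deviated by 0.16, -0.07 and -0.07, so that array 1 was 0.19 above array 2 at the median, against 0.15 over all genes.

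Spread is given here by level and by group. Among genes with a mean of 5 to 7, 13.8% were variable, against 0.193% of genes under 3 and 6.48% of genes of at least 9. The median over genes of the SD was 0.201 in untreated Ifnb+/+ cultures and 0.171 in Ifnb+/+ cultures given IFN-beta. It was 0.154 in Ifnb-/- cultures given IFN-beta and 0.087 in untreated Ifnb-/- cultures, in which 7 genes were variable. The variable genes of untreated Ifnb+/+ cultures numbered 1468 with all 3 arrays, 28 without array 1, 257 without array 2 and 1458 without array 3. The spreads of the groups were not tested against each other.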

How the data were processed

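RNA of 3 untreated Ifnb+/+ CGN cultures was read on Affymetrix mouse arrays. Quantile normalization and RMA summarization were run by the authors with Arraystar 3, and they deposited log2 intensities of 45037 probe sets for 12 arrays. Quantile normalization gives arrays like distributions, so only relative levels are kept, and the number of arrays limits the precision. Of the probe sets, 34945 named 1 gene, 932 several and 9160 none in the array annotation. For each of 18193 genes the brightest probe set naming that gene alone, by its mean over the 3 arrays, was kept. Ranks, SDs, ranges and list medians were computed in Python 3.11.15 with pandas 2.3.3 and tested on simulated arrays. No groups were tested.

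Of 958 entries in 37 gene lists 846 were measured, 3 of them through older symbols. The members and lists were chosen with earlier results of these data known. Named were the 4 markers, the 20 highest genes, the 20 genes of largest range among those with a mean of at least 5 and up to 5 of the largest range per array, in each list up to 5 highest, 3 lowest and 4 most variable members, sex-linked genes and genes the study examines. Any other gene named was chosen after its values were seen. Alternatives were averaging all probe sets of a gene, the probe set highest over all 12 arrays, probe sets naming several genes, linear means, another quantile normalization, median centring, other bands (5% and 25%) and ranges, low values left out, and each array left out. Promoter windows and gene spans came from RefSeq, GRCm38.p6.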

Additional observations from a re-analysis of the deposited data

How the results depend on the processing

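With the mean of all probe sets of a gene in place of the brightest, 11 of the 20 highest genes and 1162 of the 1819 in the highest 10% were shared, and the median percentile was 87.6 for granule neuron markers (93.1 with the brightest), 82.6 for astrocyte genes (89.3), 73.3 for microglia genes (67.2) and 45.8 for interferon-stimulated genes (42.2). With probe sets naming several genes, granule neuron markers were at 91.6 and erythroid genes at 63.4 (19.2 without them). Leaving out 1 array at a time gave 91.5 to 93.0 for granule neuron markers (lowest without array 1) and 41.8 to 43.3 for interferon-stimulated genes (highest without array 2). The count of variable genes was 28 without array 1, 257 without array 2 and 1458 without array 3, and 296 at a range of at least 1.5 log2 units. Array 2 was highest in 75.7% of variable genes with arrays centred on their medians, 76.7% after another quantile normalization, 63.3% with the mean of probe sets and 87.2% at the wider range, against 69.1%. The array 1 minus array 2 difference turned to -0.0921 for dopaminergic genes once members under 5 were dropped, and to 0.0887 for sex-linked genes with the mean of probe sets. No paired analysis was possible because the values come from 1 group and no test was made. Dim probe sets near the floor limit what low ranks can show.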

Other observations

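Detoxification genes were high in the untreated Ifnb+/+ cultures, with 10 of 23 in the highest 10% and 2 in the lowest 50%. The peroxiredoxin Prdx2 (11.15, 10.58 and 10.87 in arrays 1, 2 and 3), the glutathione peroxidase Gpx4 (10.97, 10.31 and 10.65), the superoxide dismutase Sod1 (10.17) and thioredoxin Txn1 (9.59, 10.26 and 9.92) led. The cystine transporter Slc7a11 (3.66) was the lowest. The metallothionein Mt3 (9.28, 8.10 and 8.46) was the only variable member.

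The 8 genes that were at least 1 log2 unit higher in array 2 than in array 3 were Atp6v0d2 (4.33, 6.77 and 5.53), Zfp946, Foxp2, AU041133, Col8a1, Dynlrb2, Kcne2 and Gm13238. Of the 449 variable genes highest in array 1, 443 had array 3 in the middle, and of the 1015 highest in array 2, all did.

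Genes read only through probe sets that name several genes were left out of the lists. Among them Gapdh of glycolysis read 12.54, 12.20 and 12.41, Isg15, the ubiquitin-like interferon-stimulated gene, 4.53, 5.04 and 4.51, and the transcription factor Etv1 of granule neurons 6.99, 7.50 and 7.39.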
